A study of Mus musculus with 20 samples.

Results

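The genes described here are 10 members of the insulin and growth hormone axis of the liver, namely Insr, Irs1, Irs2, Ghr, Socs2, Cish, Igf1, Igfals, Igfbp1 and Igfbp2, chosen by name and found by symbol among the 55487 gene rows of the count table. They were measured by RNA sequencing in the liver of 20 female C57BL/6J mice that were 28 weeks old and carried no transgene or deletion according to the labels. Of these, 5 mice ate chow throughout. The other 15 had been made obese on a high-fat diet (HFD) and then ate isocaloric HFDs in which part of the protein came from fishmeal (made from salmon by-products, 5 mice), salmon filet (6 mice) or beef (4 mice). Each mouse gave 1 library, so the p-values measure the spread between mice.

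Insulin binds the insulin receptor on hepatocytes, which passes the signal through the adaptor proteins IRS1 and IRS2 to the kinase AKT; AKT in turn keeps FOXO transcription factors out of the nucleus, and Irs2 and Igfbp1 are textbook genes that FOXO factors switch on when insulin is low. Growth hormone binds its own receptor and activates the transcription factor STAT5, which drives Igf1, Igfals and the feedback inhibitors Socs2 and Cish. The liver is the main source of circulating IGF-1, which travels bound to IGF binding proteins and to the acid labile subunit encoded by Igfals.

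Some libraries needed care. The label of mouse 31 says salmon filet, but its column in the count table is named for beef, which would make 5 mice in each of these groups, and the study describes groups of equal size. Levels, intervals and list counts are given as labelled, and the tests of single diets are repeated with mouse 31 as fed beef where stated. Mouse 35, fed beef, had 84.3% of its counts on protein coding genes, against 93.2% to 95.6% in the other 19 libraries. The libraries held 42526234 to 70266136 counts, and the summed TPM (the count of a gene per length, scaled to the same total in each library) of 7 hepatocyte markers from 92512 to 130585, so the liver label held. A clock score, the mean log2 CPM (counts scaled to TMM-adjusted library size, with no correction for gene length) of 8 clock genes high with Dbp minus that of 5 genes high with Arntl, ran from -3.50 to -1.45 in chow-fed mice and from -2.53 to 3.12 in HFD-fed mice. In HFD-fed mice 6 of 8 lymphocyte markers fell, and their summed level was 2.74 to 7.73 TPM, against 6.91 to 16.3 TPM with chow. The part of the clock and of lymphocytes in the results below was not tested beyond the values given beside them. In whole liver, fewer cells of a type and less RNA per cell cannot be told apart.

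The first question was how HFD feeding changed these genes. Socs2 fell by 1.53 on the log2 scale, Igfbp2 by 1.05 and Irs1 by 0.47, while none of the 10 genes rose past the threshold of an adjusted p under 0.05 (edgeR's two-sided quasi-likelihood test with Benjamini-Hochberg adjustment over all genes tested). These 3 of 10 genes compare with 9.75% of the 17120 genes tested, of which 777 were higher and 892 lower in HFD-fed mice. Thus 46.6% of the calls were higher, and 33.9% when TPM values were tested with limma in place of counts. The other settings that kept all mice gave 42.9% (no count filter) to 53.0% (clock score as a covariate). At an unadjusted p under 0.05, Ghr (higher) and Igf1 (lower) joined Socs2, Igfbp2 and Irs1. That makes 5 of the 10, beside 4174 of the 17120 genes. The 10 were chosen with earlier results of these data known, so these and later shares are no test of the set.

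**Figure D1:**
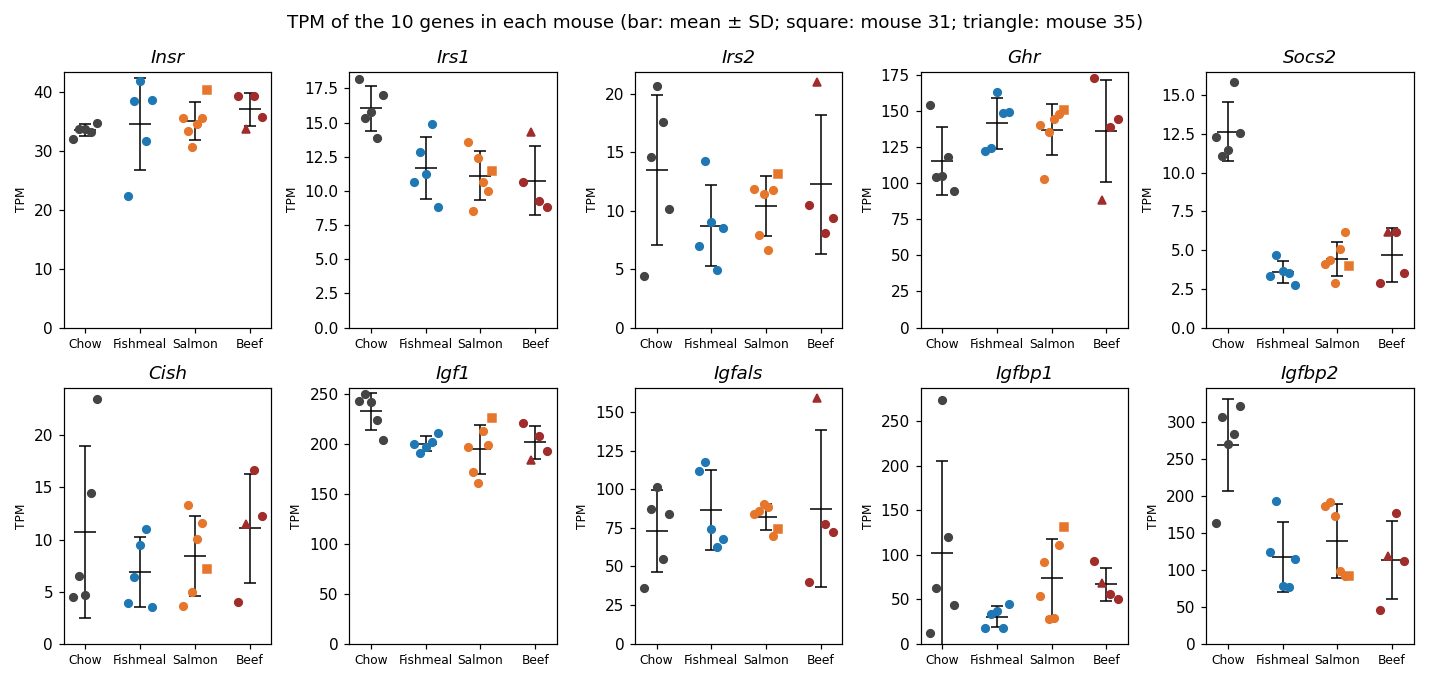
TPM (vertical axes, from 0) of each of the 10 genes in each of the 20 mice, by diet group as labelled; horizontal marks and bars are the mean and SD, cut at 0, the square is mouse 31 and the triangle mouse 35. Every HFD-fed mouse lay below every chow-fed mouse for Socs2 (2.77 to 6.18 against 11.1 to 15.9 TPM), whereas the other 9 genes overlapped. The share of all genes without overlap is not given here.

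Of the receptors, Insr (chr8:3122061-3279617, minus strand, GRCm38), which encodes the insulin receptor, was at 32.0 to 34.7 TPM in the 5 chow-fed mice. In HFD-fed mice it was lowest at 22.3 TPM in fishmeal-fed mouse 12, with a median of 35.6 TPM and a highest value of 41.9 TPM. The groups overlapped, and the log2 fold change of 0.13 (95% interval -0.04 to 0.29) did not pass the test (edgeR adjusted p = 0.358). Chow-fed mice differed little from each other in this gene in TPM, with a coefficient of variation of 3.02%, against 22.5% in fishmeal-fed mice. This contrast did not hold once trends of the libraries on base composition and transcript length were removed, as given below. In beef-fed mice, all but mouse 35 (33.6 TPM) were above every chow-fed mouse in TPM, with 39.4, 39.3 and 35.8 TPM in mice 32, 39 and 40. In CPM, beef-fed mice were at 206 to 214, with mouse 35 the highest, and chow-fed mice at 167 to 189. That log2 fold change of 0.24 (SE 0.086) had an adjusted p of 0.174 with edgeR and of 0.0295 with DESeq2, and with mouse 31 (40.4 TPM) as fed beef it was 0.25 with an edgeR adjusted p of 0.107.

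Ghr (chr15:3317760-3583492, minus strand) encodes the growth hormone receptor. Its level was 154, 104, 105, 118 and 94.5 TPM in chow-fed mice 1, 2, 5, 7 and 10. In HFD-fed mice it ranged from 88.5 TPM in mouse 35 to 173 TPM in mouse 32, with a median of 144 TPM, and 13 of 15 were above the chow mean. The groups overlapped through chow-fed mouse 1 at the top and mice 35 and 23 at the bottom. The log2 fold change was 0.30 (SE 0.12) with an edgeR adjusted p of 0.113, and without mouse 1 it was 0.45 with an adjusted p of 0.0186.

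Among the adaptors, Irs1 (chr1:82233101-82291416, minus strand) was at 18.2, 15.4, 15.8, 13.9 and 17.0 TPM in the 5 chow-fed mice. With fishmeal it was at 10.6, 12.9, 11.2, 14.9 and 8.84 TPM, with salmon filet at 8.54 to 13.6 TPM (median 11.04), and with beef at 10.7, 14.3, 9.24 and 8.79 TPM. In TPM, all 15 HFD-fed mice were below the chow mean of 16.0, and the groups overlapped because fishmeal-fed mouse 16 and beef-fed mouse 35 exceeded chow-fed mouse 7. In CPM, which is closer to the values tested, mouse 35 was at 60.7, above the chow mean of 56.7. The fold change of HFD over chow was -0.47 on the log2 scale (SE 0.13, edgeR adjusted p = 0.0247), which is a change of -27.6%. Leaving out chow-fed mouse 1, 5 or 10 took the adjusted p to 0.106, 0.0512 and 0.0512. With the clock score as a covariate, Irs1 had a log2 fold change of -0.37 (adjusted p = 0.361).

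Irs2 (chr8:10984681-11008458, minus strand), the adaptor that rises in the fasting liver, was far more variable. Chow-fed mice had 4.42, 14.6, 20.7, 17.6 and 10.2 TPM, and HFD-fed mice 4.96 to 21.1 TPM with a median of 9.37 TPM. The lowest value was in chow-fed mouse 1 and the highest in mouse 35. The groups overlapped throughout, the log2 fold change was -0.32 (95% interval -0.90 to 0.27), and the edgeR adjusted p was 0.5262.

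Because Irs2 and Igfbp1 are known FOXO targets, the 250 bases before the RefSeq start of each gene were searched on both strands for a FOXO core, CAAAACA. RefSeq promoters (GRCm38.p6) were at hand for 8 of the 10 genes, as 12 starts. The core was found before starts of Irs1, Irs2 and Igfbp1, and before 5.56% of all 32851 promoters. These 3 are shown 5′ to 3′ on the strand of the gene, with the core or its reverse complement in capitals, for Irs1 at chr1:82291440-82291689 (minus strand), Irs2 at chr8:11008930-11009179 (minus strand) and Igfbp1 at chr11:7197537-7197786 (plus strand).
Irs1: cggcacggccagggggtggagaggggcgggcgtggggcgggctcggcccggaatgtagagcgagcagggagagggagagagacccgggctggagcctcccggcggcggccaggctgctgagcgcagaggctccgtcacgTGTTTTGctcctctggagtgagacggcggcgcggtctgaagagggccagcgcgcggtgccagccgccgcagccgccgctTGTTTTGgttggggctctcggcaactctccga
Irs2: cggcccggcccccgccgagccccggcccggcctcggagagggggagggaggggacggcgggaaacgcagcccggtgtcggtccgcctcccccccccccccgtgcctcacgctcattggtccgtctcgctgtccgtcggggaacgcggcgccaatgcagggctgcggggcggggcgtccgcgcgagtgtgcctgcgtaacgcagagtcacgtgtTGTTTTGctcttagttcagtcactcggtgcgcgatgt
Igfbp1: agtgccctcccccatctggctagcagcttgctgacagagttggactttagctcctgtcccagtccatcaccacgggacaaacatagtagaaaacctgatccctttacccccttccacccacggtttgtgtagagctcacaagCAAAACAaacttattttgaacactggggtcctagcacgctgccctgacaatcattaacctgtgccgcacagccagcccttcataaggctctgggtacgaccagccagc
The core began 111 and 32 bases before the start of Irs1, 37 bases before that of Irs2 and 108 bases before that of Igfbp1. A second forkhead core, GTAAACA, was found before 1 start of Igfals and 3.17% of all promoters, and a STAT core, TTCNNNGAA, before 2 starts of Igfals and 7.02% of all promoters. A match describes these letters and shows no binding.

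Socs2 (chr10:95385362-95417180, minus strand) encodes a suppressor of cytokine signalling that STAT5 switches on and that dampens growth hormone signalling. It was at 12.3, 11.1, 11.5, 15.9 and 12.6 TPM in chow-fed mice 1, 2, 5, 7 and 10. It was at 3.31, 4.70, 3.66, 3.49 and 2.77 TPM with fishmeal, at 2.87 to 6.16 TPM with salmon filet (median 4.25), and at 2.87, 6.14, 6.18 and 3.52 TPM with beef. No HFD-fed mouse reached the lowest chow-fed mouse, although how common such separation was among all genes is not given here. The fall was 2.89-fold in all HFD-fed mice (log2 fold change -1.53, SE 0.17, edgeR adjusted p = 4.03e-06), and it passed the test in all 20 fits that left out 1 mouse, with log2 fold changes from -1.60 to -1.45. HFD-fed mice 22 and 31, whose clock scores of -1.78 and -2.53 lay within the range of chow-fed mice, had 4.13 and 3.96 TPM. With the clock score as a covariate, the log2 fold change was -1.51 (adjusted p = 0.00181). The pseudogenes Gm8000 and Gm9847, which share 452 bases with Socs2 at 95.6% and 99.6% identity, had mean counts of 2.20 and 0.80.

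Cish (chr9:107296026-107302784, plus strand), the other STAT5-induced suppressor measured, did not show the pattern of Socs2. Chow-fed mice had 4.51, 6.49, 4.65, 14.4 and 23.5 TPM, and HFD-fed mice 3.56 to 16.6 TPM with a median of 9.51 TPM. The groups overlapped throughout, and the log2 fold change of -0.24 (95% interval -1.04 to 0.56) had an edgeR adjusted p of 0.754. It became 0.28 without chow-fed mouse 10. Across the 15 HFD-fed mice, Socs2 and Cish rose and fell together, with a Pearson r of 0.70 and a Spearman rho of 0.64 of log2 CPM (permutation p = 0.00445 and 0.0123, two-sided, adjusted over 5 pairs 0.0222 and 0.0614). Without mice 35 and 39, which were farthest from the median of Socs2, r was 0.59 (permutation p = 0.0348, adjusted p = 0.174), so r stayed of similar size but no longer passed the adjusted threshold. These values, like those of the other pairs below, pool the HFD groups without centring, so differences between diets enter them. Deviations from the group means over all 20 libraries, chow included, had an r of 0.586 for Socs2 with Cish.

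Igf1 (chr10:87858265-87937042, plus strand), the growth factor that growth hormone induces in the liver, varied little between chow-fed mice, with a coefficient of variation of 8.06%. It was at 244, 250, 242, 225 and 204 TPM in chow-fed mice. HFD-fed mice ranged from 161 to 226 TPM with a median of 199.8 TPM, and all 15 were below the chow mean of 233 TPM. This held in TPM only, since in CPM fishmeal-fed mouse 12 was at 956, above the chow mean of 890. The groups overlapped in TPM too, since several HFD-fed mice exceeded chow-fed mouse 10, and mouse 31 also exceeded chow-fed mouse 7. The log2 fold change was -0.18 (95% interval -0.35 to -0.001, SE 0.084), with an unadjusted p of 0.0455 and an edgeR adjusted p of 0.194. That interval does not hold a change of the size seen for Socs2.

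Igfals (chr17:24865997-24882010, plus strand), whose product holds IGF-1 in a large complex in the blood, was at 36.3, 86.9, 102, 55.2 and 83.7 TPM in chow-fed mice and at 40.1 to 159 TPM in HFD-fed mice (median 77.6). The log2 fold change of 0.30 (95% interval -0.24 to 0.84) had an edgeR adjusted p of 0.513. The highest level was again in mouse 35, and the lowest in chow-fed mouse 1. Across the HFD-fed mice, Igf1 and Igfals showed no shared variation (r = 0.085, adjusted permutation p = 0.767).

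Igfbp1 (chr11:7197782-7202546, plus strand), an insulin-repressed binding protein that rises with fasting, had the widest range of the 10 genes. Chow-fed mice had 11.9, 62.8, 274, 120 and 44.1 TPM, a 23.0-fold range. Fishmeal-fed mice had 17.9, 34.0, 36.6, 18.3 and 44.9 TPM, salmon filet-fed mice 28.0 to 131 TPM (median 72.4), and beef-fed mice 92.6, 68.6, 56.5 and 50.1 TPM. All fishmeal-fed mice lay below all beef-fed mice, although how common such separation was among all genes is not given here. The log2 fold change of HFD over chow was -0.80 (SE 0.47, edgeR adjusted p = 0.308), and it became 0.04 without chow-fed mouse 5, so its direction rested on that mouse. Igfbp1 and Irs2 had an r of 0.50 across HFD-fed mice (adjusted permutation p = 0.133), and 0.31 without mice 35 and 16. Their deviations from the group means over all 20 libraries, chow included, had an r of 0.71, which was not tested.

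Igfbp2 (chr1:72824503-72852474, plus strand) encodes a binding protein made in quantity by the liver. It was at 164, 307, 270, 284 and 322 TPM in chow-fed mice 1, 2, 5, 7 and 10. It was at 124, 193, 78.5, 76.2 and 114 TPM with fishmeal, at 91.7 to 192 TPM with salmon filet (median 136), and at 46.4, 119, 177 and 111 TPM with beef. Chow-fed mouse 1 alone overlapped the HFD-fed mice, all of which were below the chow mean of 269 TPM. The fall was 2.07-fold (log2 fold change -1.05, SE 0.24, edgeR adjusted p = 0.00675), and it passed the test in all 20 fits that left out 1 mouse. With the clock score as a covariate, the log2 fold change was -1.20 with an adjusted p of 0.0697.

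**Figure D2:**
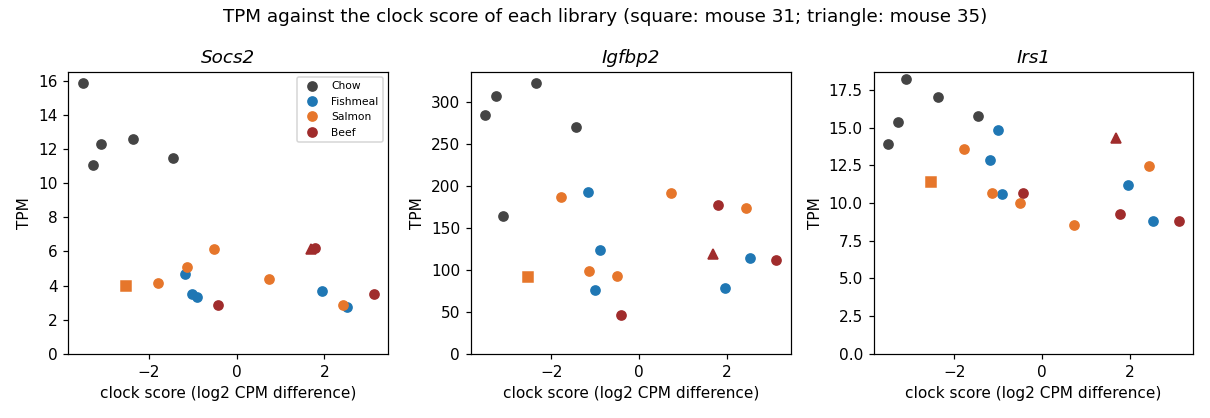
TPM of Socs2, Igfbp2 and Irs1 (vertical axes, from 0) against the clock score of each library (horizontal axes, difference in log2 CPM), 1 point per mouse and coloured by diet group. Mice 22 and 31 (the square) lie among the chow-fed mice on the clock axis, with Socs2 at 4.13 and 3.96 TPM.

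Mouse 1 and mouse 35, the lowest and highest of all mice for Igfals and Irs2, also stood at opposite ends in base composition. For each library, the slope of log2 CPM on transcript GC content was taken relative to the mean of all libraries, per SD of GC content. It was -0.24 in mouse 1 and 0.20 in mouse 35, the lowest and highest of the 20. The longest transcripts of Igfbp2 and Igfals are GC-rich (62.1% and 58.9%, at the 98.8th and 94.5th percentiles of the genes tested), and that of Ghr is GC-poor (40.9%, 10.1th percentile). Across the 20 libraries, deviations from group means correlated with this slope at r = 0.87 for Igfals, 0.85 for Igfbp2 and -0.80 for Ghr. For Irs2, Socs2 and Irs1, r was 0.57, 0.36 and 0.03, and for Igfbp1, Cish and Insr 0.21, 0.19 and -0.16. Igf1 had the most GC-poor longest transcript of the 10 genes (3.05th percentile), yet its r was only -0.23. A GC-poor transcript thus did not always go with a strong negative r. With the slope on transcript length, Insr had an r of 0.74. These coefficients describe 20 libraries whose slope was computed from the same counts, and no test was made on them. The 2 protein coding genes that varied most like each member were, for example, Adrm1 and Apba3 for Igfals (r = 0.96 for both), Clpp and Fastk for Igfbp2 (0.91 for both), Pde3b and Isoc1 for Ghr (0.93 and 0.92) and Zc3h13 and Arhgef12 for Insr (0.91 and 0.90), over the same 20 libraries. They were picked as the highest of 7373 genes compared, so their r is high by selection and was not tested.

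When the trends of the libraries on GC content and length entered the fit as offsets, an alternative chosen after seeing the data, Igfbp2 fell by 1.21 on the log2 scale (edgeR adjusted p = 2.97e-05) and Ghr rose by 0.37 (adjusted p = 0.00933). Socs2 and Irs1 were called as before, at -1.48 and -0.47 (adjusted p = 1.33e-05 and 0.0270). Calls were more common over all genes too, at 2389 of 17093 with the offsets against 1669 of 17120 without them. Igfbp2 with the trend removed was at 182 to 225 CPM in chow-fed mice and at 49.4 to 127 CPM in HFD-fed mice, with no overlap, whereas without the offsets mouse 1 (120 CPM) lay in the HFD range of 32.9 to 149 CPM. The share of all genes without overlap is not given here. The SD of Igfbp2 within the chow group went from 0.37 to 0.12 on the log2 scale. The trend removal did not narrow every spread. With fishmeal, the SD went from 0.16 to 0.35 for Igf1 and from 0.32 to 0.40 for Irs1. For Insr it went from 0.080 to 0.13 with chow and from 0.22 to 0.088 with fishmeal. The log2 fold change of Igfals with the offsets was 0.21 with an edgeR adjusted p of 0.509. Ghr with the offsets did not pass in single diets, with adjusted p-values of 0.0795, 0.0645 and 0.0979 for fishmeal, salmon filet and beef.

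**Figure D3:**
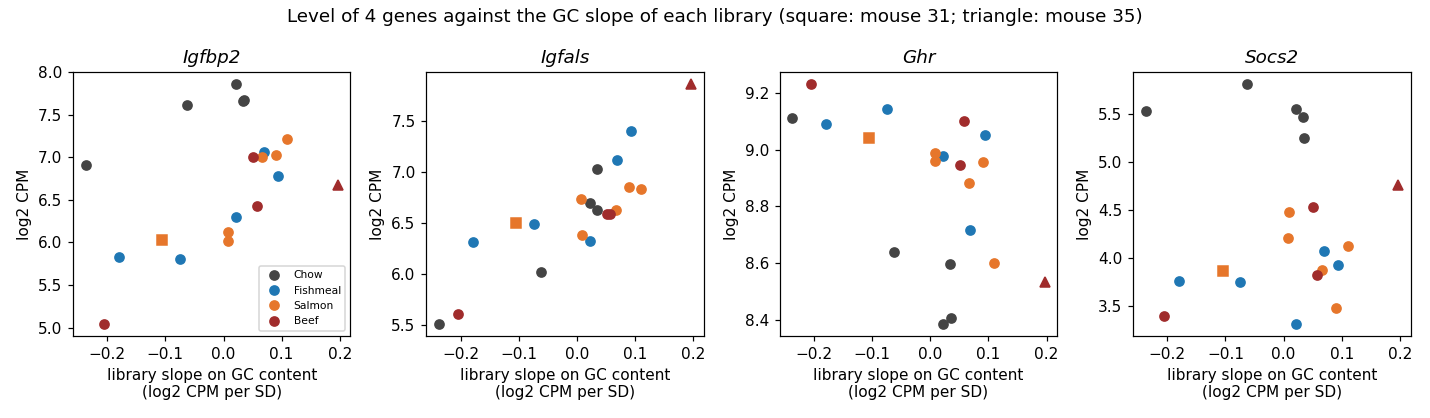
Log2 CPM (vertical axes) of Igfbp2, Igfals, Ghr and Socs2 against the slope of each library on transcript GC content (horizontal axes, log2 CPM per SD), 1 point per mouse and coloured by diet group. Igfals and Igfbp2 rise and Ghr falls along the axis (r = 0.87, 0.85 and -0.80 of the deviations from group means), and the chow-fed mice form a separate band for Igfbp2 and Socs2.

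The other members had their nearest genes at r = 0.87 and 0.79 for Irs1 (Sfxn5 and Sfxn2), 0.85 and 0.84 for Irs2 (Rhpn2 and Scap), 0.75 and 0.74 for Socs2 (Ski and Mfhas1), 0.90 and 0.87 for Cish (Foxa2 and Phlda1), 0.77 and 0.76 for Igf1 (Dhx29 and Canx), and 0.85 and 0.79 for Igfbp1 (Rab11fip1 and Clec16a). Of these, Sfxn5 was called in HFD-fed mice, at a log2 fold change of 0.40 (adjusted p = 0.0143), opposite in sign to Irs1. Socs2 was the member whose nearest genes were least alike, and Ski and Mfhas1 had log2 fold changes of -0.05 and -0.0006. Every nearest gene was the highest or next of 7373 compared, so values of this size may come from the search alone and were not tested.

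Each HFD was next compared with chow, and these comparisons share the 5 chow-fed mice. With fishmeal, Socs2 (log2 fold change -1.76, SE 0.14, edgeR adjusted p = 6.60e-05) and Igfbp2 (-1.14, SE 0.25, adjusted p = 0.0261) fell, which is 2 of 10 genes against 3.38% of 16471 genes. With salmon filet, Socs2 (-1.50, SE 0.16, adjusted p = 0.000226), Irs1 (-0.53, SE 0.11, adjusted p = 0.0222) and Igfbp2 (-0.92, SE 0.24, adjusted p = 0.0490) fell, which is 3 of 10 against 4.46% of 16605. With beef, Socs2 fell (-1.32, SE 0.24, adjusted p = 0.0190), which is 1 of 10 against 2.48% of 16559. Igfbp2 and Irs1 had values of -1.14 and -0.46 with beef that did not pass the test (adjusted p = 0.0898 and 0.209), and Irs1 had -0.40 with fishmeal (adjusted p = 0.169). Igfbp1 had -1.75 with fishmeal (95% interval -3.17 to -0.33, adjusted p = 0.155), which became -0.90 (edgeR adjusted p = 0.367) without chow-fed mouse 5 and -2.03 (0.0417) without chow-fed mouse 1. Ghr also passed with fishmeal without mouse 1 (0.50, adjusted p = 0.0477).

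Several calls of single diets rested on few mice. Igfbp2 passed the test in 5 of 10 fits that left out 1 mouse with fishmeal (adjusted p up to 0.0709) and in 2 of 11 with salmon filet (up to 0.0972, without chow-fed mouse 7). With mouse 31 counted as fed beef, Igfbp2 had an adjusted p of 0.0706 with salmon filet and 0.0461 with beef, so its call moved from one diet to the other, while Socs2 fell in both (-1.47 and -1.38, edgeR adjusted p = 0.00109 and 0.00855). Irs1 with salmon filet had an adjusted p of 0.0335 in that grouping and of 0.0534 without mouse 26. Without mouse 35, Irs1 fell with beef by 0.70 (adjusted p = 0.0216). Socs2 with beef missed the threshold without chow-fed mouse 7 (adjusted p = 0.0532) or without beef-fed mouse 40 (0.0770). With the GC and length offsets, Igfbp2 fell in each diet, at -1.25, -1.11 and -1.32 for fishmeal, salmon filet and beef (adjusted p = 0.000592, 0.00251 and 0.00547).

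**Figure D4:**
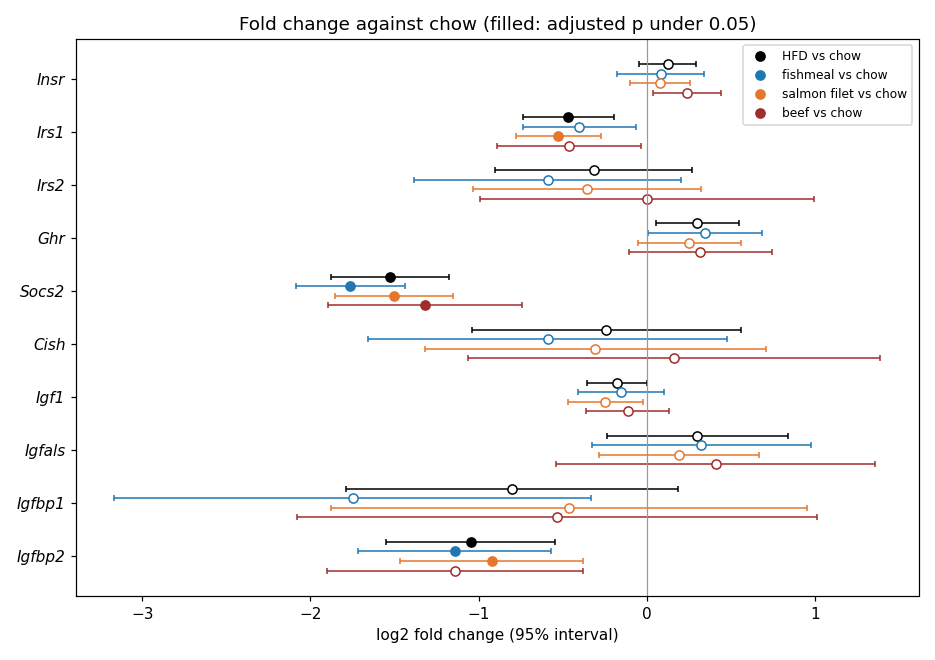
Log2 fold change (horizontal axis) with its 95% interval for each of the 10 genes in HFD-fed mice together and in each HFD group as labelled, all against the same 5 chow-fed mice; filled points passed an adjusted p under 0.05. The 4 intervals of Socs2 lie below 0 at -1.53, -1.76, -1.50 and -1.32.

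The protein sources were then compared with each other. None of the 10 genes passed the test in fishmeal against salmon filet (0.157% of 16548 genes called, 26 genes), fishmeal against beef (0.00607% of 16480, 1 gene) or salmon filet against beef (0% of 16509). At an unadjusted p under 0.05 in the same edgeR fits, 702, 384 and 613 genes and 1, 1 and 0 of the 10 were found, and DESeq2 called 84, 30 and 1 genes. The member in question was Igfbp1, which was lower with fishmeal than with salmon filet (log2 fold change -1.27, 95% interval -2.16 to -0.38, unadjusted p = 0.00623, adjusted p = 0.685) and than with beef (-1.22, 95% interval -1.81 to -0.64, unadjusted p = 0.000348, adjusted p = 0.359). DESeq2 called the latter (adjusted p = 0.00453), and with mouse 31 counted as fed beef the edgeR values were -1.04 and -1.44 (adjusted p = 0.897 and 0.173).

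For Socs2 the intervals between diets were narrower than its fall against chow. It differed by -0.24 on the log2 scale between fishmeal and salmon filet (95% interval -0.62 to 0.13), by -0.45 between fishmeal and beef (-1.04 to 0.14) and by -0.19 between salmon filet and beef (-0.77 to 0.39). For Igfbp2 the intervals were -0.84 to 0.44, -0.84 to 0.84 and -0.59 to 1.01, which are as wide as its fall and leave differences between the diets unmeasured. For Irs1 they were -0.18 to 0.46, -0.44 to 0.55 and -0.47 to 0.33. With mouse 31 as fed beef, the same 3 differences were -0.29, -0.38 and -0.09 for Socs2, -0.32, 0.07 and 0.38 for Igfbp2, and 0.13, 0.07 and -0.07 for Irs1, and none of the 10 genes passed the test.

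The surrounding pathway genes were counted in HFD-fed against chow-fed mice, where the median log2 fold change over all genes was 0.005. Of 32 other insulin signalling genes, 3 rose and none fell, with a median of 0.08, a share of calls near the 9.75% of all genes. These were Foxo3, a FOXO factor (0.50, adjusted p = 0.0126), Trib3, an inhibitor of AKT (1.04, 0.0484), and Tsc1, a brake on mTORC1 (0.42, 0.00511). Of 12 genes that respond to insulin or FOXO in liver, 3 rose and 1 fell, with a median of 0.14. Srebf1, the driver of fatty acid synthesis (1.42, adjusted p = 2.22e-05), and Klf15, a regulator of amino acid breakdown (0.65, 0.0290), were among those that rose. Pdk4, which spares glucose in fasting, fell by 1.29 on the log2 scale (adjusted p = 0.0119), from 30.6 to 37.7 TPM with chow to 5.55 to 29.6 TPM with HFD, with no overlap. The share of all genes without overlap is not given here. The gluconeogenic genes Pck1 and G6pc had log2 fold changes of 0.05 and -0.50 and did not pass the test (adjusted p = 0.929 and 0.226).

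Of 14 other growth hormone signalling genes tested, Lepr, the leptin receptor, fell by 0.97 on the log2 scale (adjusted p = 0.0385) and 13 did not pass, with a median of 0.03. None of 10 other genes of the IGF system passed, with a median of -0.05. Of 10 liver genes whose sex bias is set by the pattern of growth hormone and that are higher in females, 3 rose and 2 fell. Among them were the sulfotransferase Sult3a1 (-1.88, adjusted p = 0.000392), the peroxisomal oxidase Hao2 (1.56, 0.00120) and the cytochrome P450 Cyp2b13 (0.99, 0.000584). Sult3a1 and Cyp2b13 have close paralogs, among which reads may have been divided.

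Of 7 male-biased genes tested, 3 fell and none rose, with a median of -0.52. The largest change was in Slco1a1, an organic anion transporter, which fell from 7.58 to 52.1 TPM with chow to 0.0885 to 12.4 TPM with HFD (log2 fold change -3.78, SE 0.75, adjusted p = 0.00219). Hsd3b5, a steroid dehydrogenase, and Elovl3, a fatty acid elongase, fell by 2.29 and 1.04 on the log2 scale (adjusted p = 0.00340 and 0.0336). Hsd3b5 was low throughout, at 0.146 to 3.27 TPM with chow and 0.0610 to 0.513 TPM with HFD. The levels of all 3 overlapped between the groups. Female-biased and male-biased genes thus both included falls. Beside these lists, 7 of 8 clock genes high with Dbp rose, with a median of 2.00, and 2 of 5 genes high with Arntl fell.

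**Figure D5:**
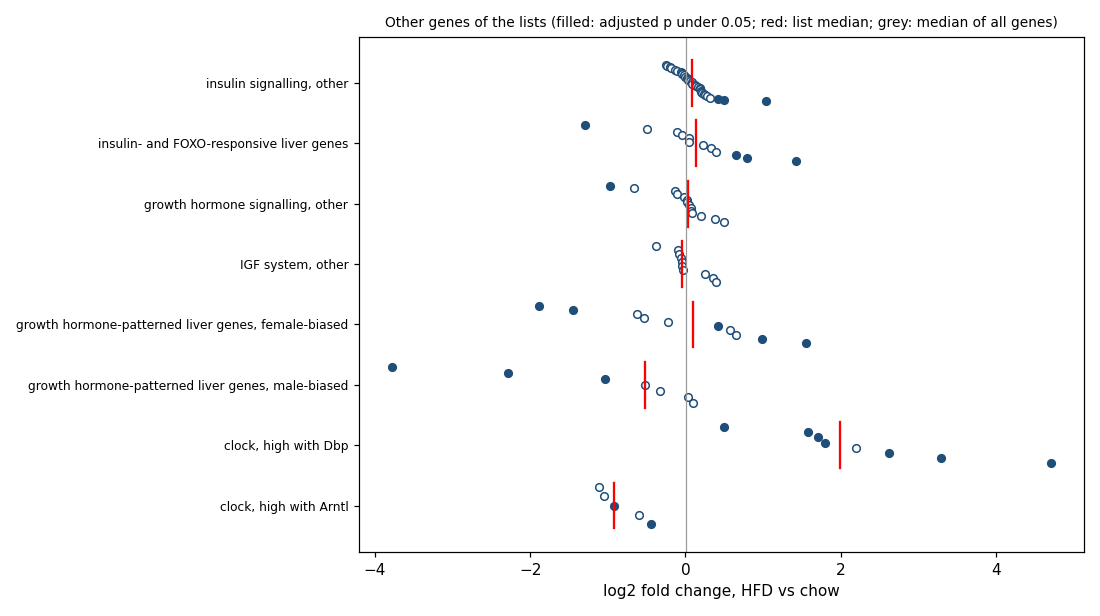
Log2 fold change in HFD-fed against chow-fed mice (horizontal axis) of the other genes in each list, 1 point per gene; filled points passed an adjusted p under 0.05, red marks are list medians and the grey line is the median of all genes. The insulin, growth hormone signalling and IGF lists centre between -0.05 and 0.14 and the male-biased list at -0.52, while the clock list high with Dbp centres at 2.00.

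In single diets, where 3.38%, 4.46% and 2.48% of all genes were called with fishmeal, salmon filet and beef, the counts of these lists were small. The insulin signalling list had 0, 1 and 2 genes called of 32 in that order, which is near those shares, the insulin-responsive list had 2 of 12 with each, and the growth hormone and IGF lists had none. The female-biased list had 4, 4 and 3 of 10, and the male-biased list 1, 1 and 0 of 7. Of the cell type lists, 1 of 7 hepatocyte, 0 of 5 Kupffer cell, 1 of 6 sinusoidal endothelial, 0 of 6 stellate and 1 of 6 cholangiocyte markers were called in HFD-fed against chow-fed mice, all lower. Of adipocyte, pancreas and red blood cell markers, 0 of 1, 1 of 1 and 1 of 5 tested were called, both higher. Of the 7 pancreas markers listed, only Cela1 passed the filter, and it was at 10.1 to 12.0 TPM with chow. No counts were found for 5 of the 7 with chow and for 3 with HFD.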

How the data were processed

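Liver mRNA libraries were strand-specific and sequenced as paired ends. The authors trimmed reads with BBDuk, mapped them with HISAT2 (version 1.2.1 per the submitters' processing notes) with read counting per Ensembl gene in featureCounts (version 1.4.6-p1) and no pooling of mice. The deposited counts are raw, and the deposited TPM were scaled to gene length and library size by the authors. Settings for strand and for reads that fit several genes are not given in the sources used here. Genes overlapping a member, or near-identical to it, had mean counts of 0 to 94.7. The mouse genome build is printed as a human one in the methods, so positions here are taken from GENCODE M21 on GRCm38.

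Counts were tested with edgeR 4.0 in R 4.3 (TMM, filterByExpr with a minimum count of 10, quasi-likelihood F-test, Benjamini-Hochberg over all genes tested). Groups followed the sample labels and 0 columns were left unmapped. No batch is labelled. Intervals are log2 fold change ± the t quantile times SE. Log2 CPM used a prior count of 2, and permutation tests 100000 permutations. Alternatives were DESeq2 1.42, RLE and upper quartile factors, no filter, limma 3.58 on log2(TPM + 1) (mean TPM 0.5 or more), all groups in 1 fit, the clock score as covariate, mouse 31 as beef, each mouse left out, and, chosen after seeing the data, GC and length offsets from natural splines. Gene-wise fits other than those with the covariate were tested on simulated data. The sequenced depth makes counting error small beside the spread between mice. Each of 41 pairs of libraries within groups differed beyond counting noise (chi-square per gene at least 35.1).

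The members and lists were chosen with earlier results of these data known. Genes named are the 10 members, other listed genes called in HFD versus chow (the 4 largest where over 4 were), up to 3 of each clock or cell type list, and for each member the 2 protein coding genes (mean CPM 10 or more) whose deviations from group means were most correlated with it. Pck1 and G6pc were added after their values were seen. Some genes that this rule names are not reported here. All 10 members passed the filter in all 7 comparisons.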

Additional observations from a re-analysis of the deposited data

Results flagged for a closer look

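Ghr in salmon filet-fed mouse 23 was at 102 TPM, far below the next mouse of its group at 135 TPM, and its gap exceeded Dixon's critical value for 6 samples. It was the only such value among 40 combinations of gene and group, of which chance picks about 1 in 20.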

How the results depend on the processing

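The falls of Socs2, Igfbp2 and Irs1 in HFD-fed mice kept their direction under every alternative; the cause of each change below was not tested. In HFD versus chow, the clock score as a covariate left 319 genes and 1 member called, and with 1 mouse left out 986 to 1939 genes and 2 to 3 members were called (986 without chow-fed mouse 1). In fishmeal versus chow, DESeq2 called 1198 genes, limma 367, the offsets 992 and all groups in 1 fit 837, with 288 to 685 genes and 1 to 4 members when 1 mouse was left out; 42.8% of the main calls were higher, 30.0% with limma and 57.4% with the offsets. In salmon filet versus chow, DESeq2, limma and the offsets gave 1488, 437 and 1182 genes. All groups in 1 fit gave 602 genes and 1 member, and leaving 1 mouse out gave 311 to 728 genes and 1 to 3 members. In beef versus chow, DESeq2 gave 1092 genes and 3 members, the offsets 963 and 2, and all groups in 1 fit 780 genes. Mouse 31 as beef gave 499 genes and 2 members, and leaving 1 mouse out 100 to 634 genes and 0 to 2 members. Of the main calls, 47.2% were higher, and 29.7% with limma. In fishmeal versus salmon filet, DESeq2 called 84 genes, no filter 42, and leaving 1 mouse out 18 to 41. In fishmeal versus beef, DESeq2 called 30 genes and 1 member, no filter 10, limma 0, all groups in 1 fit 4, mouse 31 as beef 4, and leaving 1 mouse out 0 to 4. In salmon filet versus beef, DESeq2 called 1 gene.

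With 1 mouse left out, Cish in HFD versus chow ran from -0.43 to 0.28 (without chow-fed mouse 10). Igfbp1 ran from -2.03 to -0.90 (without chow-fed mouse 5) in fishmeal, -1.09 to 0.038 in HFD, -0.75 to 0.37 in salmon filet and -0.82 to 0.32 in beef versus chow, reversing in the last 3 without chow-fed mouse 5, and was 0.0075 in beef versus chow with limma. In salmon filet versus beef its main value of 0.06 became -0.058 with limma, -0.40 with mouse 31 as beef, and -0.18 to 0.23 with 1 mouse left out, reversing without mouse 23, 27, 31, 39 or 40. Without the 2 farthest mice, r of Socs2 with Cish was 0.59, of Igf1 with Igfals -0.13 and of Igf1 with Socs2 -0.016. No paired analysis was possible because no 2 groups share mouse numbers.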
